A study of Mus musculus with 24 samples.

Results

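Corticosteroid signalling was followed through 10 genes in mouse adrenal glands and neuroblastomas. The genes were the corticosteroid receptors Nr3c1 and Nr3c2, the 11-beta-hydroxysteroid dehydrogenases Hsd11b1 and Hsd11b2, and the glucocorticoid targets Tsc22d3, Fkbp5, Per1, Sgk1, Zbtb16 and Klf9. They were chosen for their known roles and found by gene symbol in the deposited expression table, 10 of its 21833 protein-coding genes. Of these, 7 reached the minimum for testing across all genes, which was 1 FPKM (fragments per kilobase of gene, scaled to 1000000 fragments) in at least 3 libraries. Nr3c2, Hsd11b2 and Zbtb16 did not.

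Glucocorticoids are steroid hormones made in the adrenal cortex, which surrounds the catecholamine-producing chromaffin cells of the medulla. The glucocorticoid receptor rests in the cytoplasm with a chaperone complex, moves into the nucleus once hormone is bound and regulates genes at glucocorticoid response elements. Inside a cell the supply of active hormone also depends on the dehydrogenases, since Hsd11b1 regenerates active corticosterone from its inert form and Hsd11b2 inactivates it. In the gland, cortical glucocorticoid keeps chromaffin cells in an adrenaline-producing state through Pnmt, and neuroblastoma arises from the same sympatho-adrenal lineage.

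The study asked whether the RNA-binding protein IGF2BP1 drives neuroblastoma, alone or with MYCN, and measured poly(A) RNA of 24 samples. The control glands (AG, n = 3) came from mice without Cre, and the glands called AGM (n = 5) from tumor-free mice with 1 MYCN transgene copy (MYCN +/-) and Cre. TI were the neuroblastomas that arose with the IGF2BP1 transgene and Cre (n = 8), 7 labelled +/+ and 1 labelled +/-, and 1 of them labelled as lying in the adrenal gland. TIM were those that arose with both transgenes and Cre (n = 8), 2 labelled as adrenal and 1 as spinal. The transgenes sat in the Rosa26 locus behind a floxed stop cassette, the IGF2BP1 transgene lacked its long 3′ untranslated region, and the improved Cre was driven by the Dbh promoter, which is active in noradrenergic cells. The mice were backcrossed to C57Bl6/N, and no age is given in the labels. In the paper the MYCN mice were culled at a later age than the homozygous IGF2BP1 mice. Median survival was shortest with both transgenes, so age also differs between AGM, TI and TIM and cannot be told apart from group. The labels do not tie libraries to mice, so p-values measure the spread between these libraries, which are numbered here in the order of their columns. Group values are means ± SD over libraries, and ± beside a log2 fold change is its standard error (SE). AG shared no sequencing run with AGM or TIM, and run and group cannot be told apart in those comparisons. Run and group were also largely mixed in TIM against TI. Of TI, 6 samples were in run 1, 1 in run 2 and 1 in run 3, whereas TIM had 3 in run 2 and 5 in run 3. In bulk tissue, fewer cells of a type and less RNA per cell cannot be told apart either.

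The DNA next to the start sites is shown for Sgk1, Per1 and Fkbp5, since these 3 members had a match to the palindromic receptor element within 5 kb of the start, the first base of the canonical transcript. The sequences were read from GRCm39, the build of the deposited values, and are written 5′ to 3′ on the strand of the gene with 6 bases on each side, the matched bases in capitals. The full palindrome is AGAACA and TGTTCT with 3 bases of any kind between them, the looser one GNACA and TGTNC with the same spacing, and the E-box CACGTG. Positions count from the start, negative upstream.
Sgk1, full palindrome at position -965: gcggaaAGAACAGAATGTTCTcggaga
Per1, looser palindrome at position -1365: ccaagaGAACACGATGTTCcctagt
Per1, looser palindrome at position 975: aggctgGAACATCCTGTTCtcagcg
Fkbp5, looser palindrome at position 1213: ggctcgGGACAGGGTGTACagcgct
Per1, E-box at position -22: taacgaCACGTGggccct
Fkbp5, E-box at position -140: gccagaCACGTGggcagc

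The Sgk1 match lies at chr10:21869600-21869614 on the plus strand. The Per1 matches lie at chr11:68987903-68987915 and chr11:68990243-68990255 on the plus strand, and the Fkbp5 match at chr17:28703927-28703939 on the minus strand. All 4, and both E-boxes, fall in introns of annotated transcripts. The full palindrome was present within 5 kb of the start in 26 of 21485 genes searched on both strands (0.121%). The looser form, which lies inside the full one, was present in 3337 genes (15.5%). The E-box, the site of the clock activators and of MYC proteins, was searched in the window from 250 bases before to 50 bases after the start, where 1694 genes held one (7.88%). The Per1 E-box lies at chr11:68989246-68989251 and that of Fkbp5 at chr17:28705287-28705292. Such a match describes the letters only and is no measurement of binding.

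The deposited values gave back whole read numbers after the authors' batch correction. These summed to between 12334076 and 23683176 per library outside the 126 genes above 1000 FPKM. All recovered reads together summed to between 58530450 and 1170004708 per library in AGM and TIM, against 12468968 to 21353172 in AG and TI. The excess in AGM and TIM lay in those 126 genes. Such sums are values after correction and not sequencing depth, and the part of the batch correction in them was not tested. Markers of the adrenal cortex, 9 genes such as Cyp11b1, Cyp21a1 and Star, summed to 675 to 704 FPKM in AG and 4332 to 5433 FPKM in AGM, but to 0.493 to 13.6 FPKM in TI and 1.28 to 11.3 FPKM in TIM. The 10 chromaffin and sympathetic markers summed to 140 to 202 FPKM in AG, 1288 to 2163 FPKM in AGM, 200 to 1814 FPKM in TI and 214 to 4740 FPKM in TIM. AGM libraries 4 and 5 held 3611 and 4774 FPKM of 6 liver markers, and are called liver-marked here, against 3.07 to 143 FPKM in the other 3 AGM libraries and at most 3.45 FPKM elsewhere. The tumors were therefore compared with whole glands that contain cortex.

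Few members changed in each comparison of the fit across all genes (limma, false discovery rate (FDR) below 0.05). Hsd11b1, Sgk1 and Klf9 fell in TI against AG and no member rose, 3 of 7, where 52.4% of the 10171 tested genes were called, 27.7% lower and 24.6% higher. Hsd11b1 and Sgk1 fell in TIM against AG, 2 of 7, where 51% of all genes were called, 28.5% lower and 22.5% higher. Only Hsd11b1 passed in AGM against AG, where it rose, with 28.6% of all genes called, 14.6% higher and 14% lower. Hsd11b1 and Sgk1 fell in TIM against AGM, where 65.3% of all genes were called, 33.4% lower and 31.9% higher. Per1 alone passed in TIM against TI, where it rose, with 22.9% of all genes called, 10% higher and 12.9% lower. With 7 members tested, these counts are read as no result about the members as a group. On the log2(FPKM + 1) scale used for these tests the change of low values is understated.

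**Figure D1:**
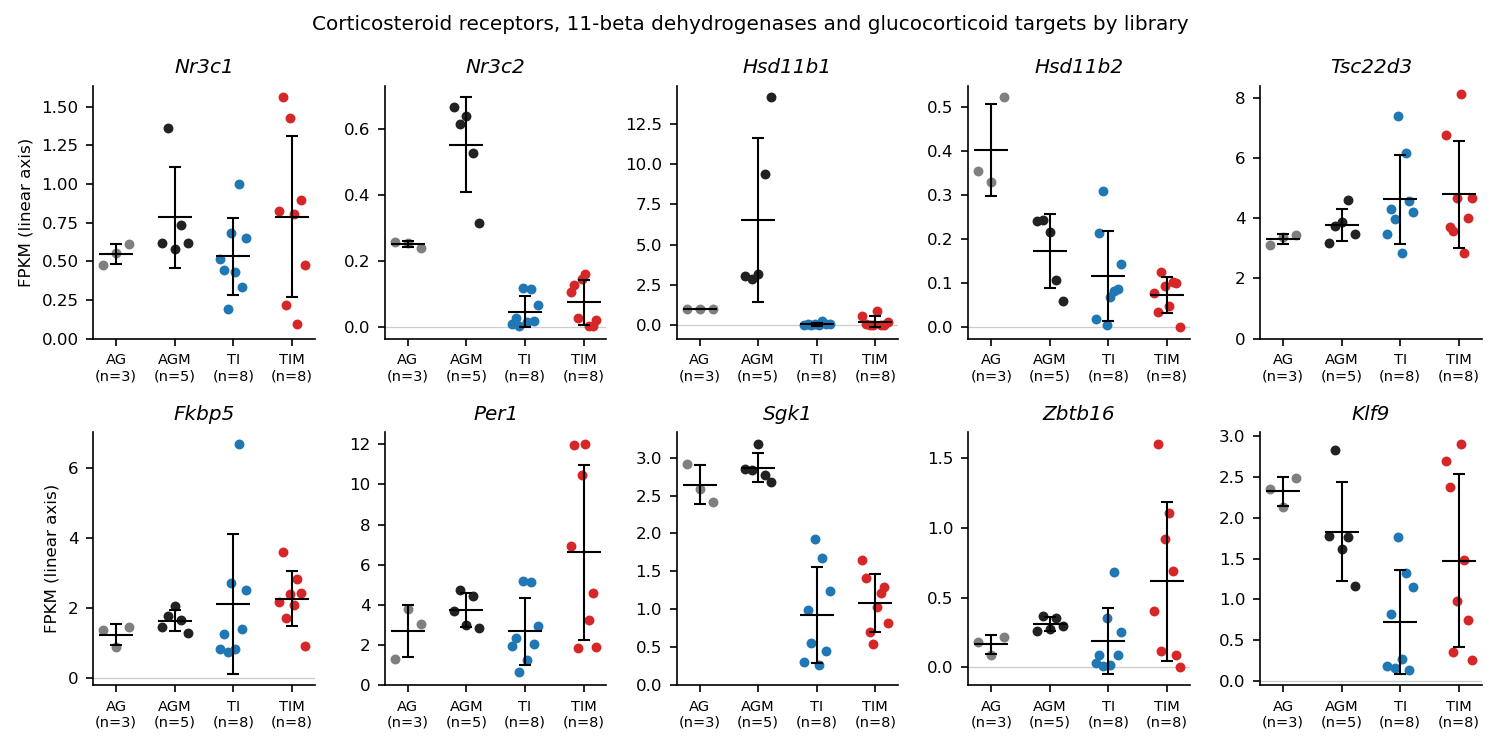
FPKM (linear axis, 1 panel per gene) of the 10 genes in every library of AG, AGM, TI and TIM, with points for libraries and bars for mean ± SD. Sgk1, Nr3c2, Hsd11b1 and Hsd11b2 lay lower in every tumor library than in every AG library, whereas Nr3c1, Fkbp5, Per1 and Zbtb16 spread widely among tumors. The share of all genes that lie apart from the AG libraries in this way was not counted.

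Of the receptor genes, Nr3c2 was lower in both tumor groups than in AG, and Nr3c1 passed no comparison. Nr3c1 (ENSMUSG00000024431) encodes the glucocorticoid receptor. It was at 0.478, 0.553 and 0.609 FPKM in the AG libraries and at 0.619, 1.36, 0.582, 0.734 and 0.619 FPKM in the AGM libraries. In TI its lowest, median and highest values were 0.191, 0.477 and 0.9999 FPKM, and in TIM 0.0968, 0.817 and 1.56 FPKM. All groups overlapped, with the widest range in TIM. The difference was -0.03 ± 0.20 (SE) in TI against AG (limma, adjusted p = 0.957), with a 95% confidence interval of -0.45 to 0.39. In TIM against AG it was 0.15 ± 0.20 (adjusted p = 0.555), with an interval of -0.27 to 0.58. Nr3c1 exceeded 1 FPKM in just 3 libraries, although between 67 and 1461 recovered reads lay behind each value.

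Nr3c2 (ENSMUSG00000031618, chr8:77625576-77971863), the mineralocorticoid receptor, binds aldosterone and glucocorticoids alike. It was at 0.256, 0.254 and 0.239 FPKM in the AG libraries and at 0.314 to 0.665 FPKM in AGM. Its lowest, median and highest values were 0.00309, 0.0219 and 0.116 FPKM in TI and 0.00135, 0.0648 and 0.160 FPKM in TIM. No tumor library reached the lowest gland library, and no AGM library fell into the range of AG. Because these values lay below the filter, they were compared as RPM, reads scaled to 1000000 of the reads outside the genes above 1000 FPKM. Mean Nr3c2 was 9.83 ± 0.534 RPM for AG, 16.2 ± 5.91 RPM for AGM, 1.79 ± 1.86 RPM for TI and 2.49 ± 2.25 RPM for TIM. It was 5.49-fold lower in TI than in AG (exact two-sided permutation test, adjusted p = 0.0182), 3.94-fold lower in TIM than in AG (exact test, adjusted p = 0.0182) and 6.51-fold lower in TIM than in AGM (exact test, adjusted p = 0.0117). Its higher mean in AGM than in AG did not pass in RPM (exact test, adjusted p = 0.208) or on FPKM as deposited (exact test, adjusted p = 0.0595). The limma fit to log2(FPKM + 1) called Nr3c2 higher in AGM without a filter (0.31, adjusted p = 0.00139) and with a minimum of 0.1 FPKM (0.31, adjusted p = 0.00141), but not with FPKM rescaled to the reads outside the genes above 1000 FPKM (0.43, adjusted p = 0.178). Adjustment was over 15 pairs of a low gene and a comparison, 6 of which passed, and the smallest unadjusted p that 3 against 8 libraries allow is 0.00606.

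Per length, Nr3c1 exceeded Nr3c2 in all 3 AG libraries, 3 of 5 AGM libraries and all 16 tumors. The ratio of their FPKM had a median of 2.18 in AG and 1.39 in AGM, but 18.2 in TI and 11.1 in TIM.

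Both dehydrogenases were lower in tumors than in AG, whereas in AGM Hsd11b1 was higher and Hsd11b2 lower than in AG. Hsd11b1 (ENSMUSG00000016194, chr1:192903918-192946489), the reactivating enzyme, was at 0.989, 1.003 and 1.04 FPKM in AG and at 3.09, 2.90, 3.15, 9.40 and 14.1 FPKM in AGM. In TI its lowest, median and highest values were 0.0135, 0.0501 and 0.277 FPKM. In TIM it was at 0 in libraries 3, 4 and 6, where a count of 0 allows up to 0.177, 0.127 and 0.189 RPM (3 reads per library, counting error only), and its median and highest values were 0.0597 and 0.889 FPKM. Neither the tumor groups nor AGM overlapped with AG. On the log2(FPKM + 1) scale Hsd11b1 rose by 1.66 ± 0.32 in AGM against AG (limma, adjusted p = 0.000471). It fell by 0.91 ± 0.30 in TI against AG (adjusted p = 0.0132) and by 2.42 ± 0.25 in TIM against AGM (adjusted p = 2.04e-08). In TIM against AG it fell by 0.76 ± 0.30 (adjusted p = 0.0374), a call that was lost when any 1 AG library was left out (adjusted p = 0.0895 to 0.0984) and also without any 1 of TIM libraries 2, 3, 4, 6 and 7 (adjusted p = 0.0510 to 0.0563). It was also lost without the filter on low values (adjusted p = 0.0539). Hsd11b1 passed this filter through 2 AG and 5 AGM libraries and no tumor. All its falls in tumors against glands were thus tested in a gene selected through the groups where it was high, and their p-values carry that selection.

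AGM libraries 4 and 5, with the highest Hsd11b1, were those with the liver markers. Without them Hsd11b1 still rose in AGM against AG, by 1.01 (limma, adjusted p = 0.000390), and fell in TIM against AGM by 1.77 (adjusted p = 2.92e-09). Between groups its level also moved with other markers. The summed adipocyte markers ran from 56.9 to 273 FPKM in AG and from 247 to 1113 FPKM in AGM, with 3 of 6 higher in AGM, and 8 of 9 cortex markers were higher in AGM than in AG. In TI against AG 8 of 9 cortex markers and 6 of 6 adipocyte markers were lower, and in TIM against AG likewise 8 of 9 and 6 of 6. The TI and TIM libraries with the most cortex markers, TI library 6 at 13.6 FPKM and TIM library 5 at 11.3 FPKM, were also those with the most Hsd11b1 of their groups. Within the glands the levels did not move together in this way. AGM library 2 held the most adipocyte markers of AGM (1113 FPKM) and the lowest Hsd11b1 (2.90 FPKM). AGM library 3 held the most cortex markers (5433 FPKM) with 3.15 FPKM of Hsd11b1. The part of cortex, adipocyte and liver tissue in the Hsd11b1 values was not tested.

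**Figure D2:**
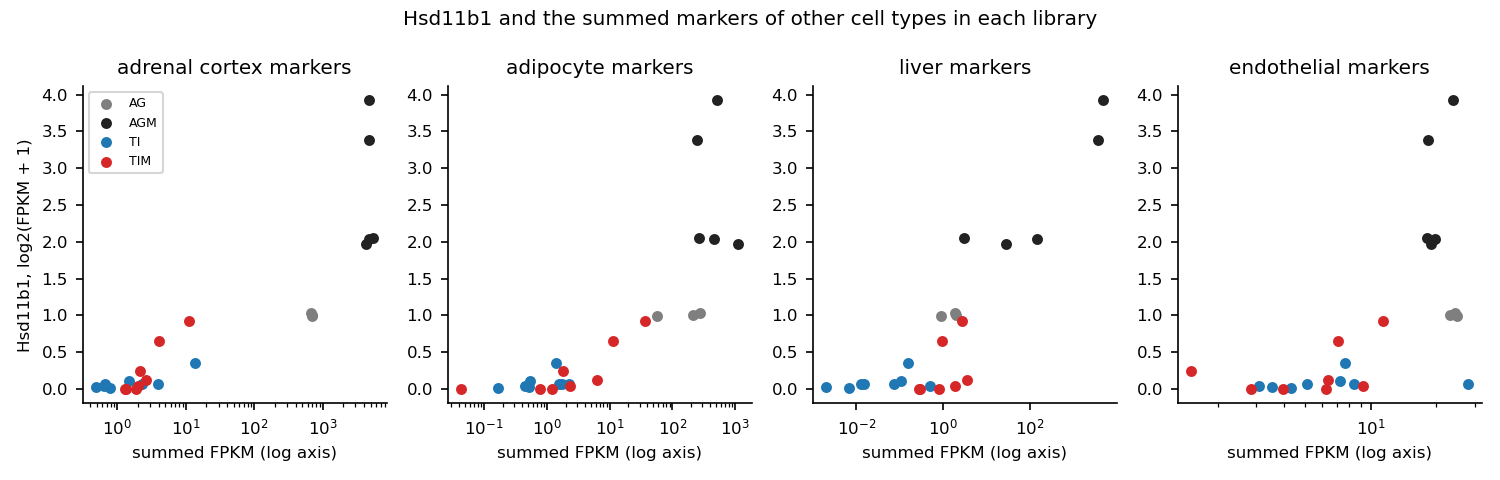
Hsd11b1 as log2(FPKM + 1) against the summed FPKM (log axis) of adrenal cortex, adipocyte, liver and endothelial markers, 1 point per library, colored by group. AGM libraries combined the highest Hsd11b1 with the highest cortex sums, and the 2 AGM libraries with the highest Hsd11b1 held over 1000 FPKM of liver markers. A TIM library without any liver marker read is left out of the liver panel.

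Hsd11b2 (ENSMUSG00000031891, chr8:106245369-106250620), the inactivating enzyme, was highest in AG, at 0.355, 0.330 and 0.522 FPKM, and ran from 0.0584 to 0.243 FPKM in AGM. In TI its lowest, median and highest values were 0.00499, 0.0849 and 0.309 FPKM, and in TIM 0, 0.0853 and 0.126 FPKM. All AGM, TI and TIM libraries lay below all AG libraries. Mean Hsd11b2 was 4.49 ± 1.10 RPM for AG, 1.49 ± 0.849 RPM for AGM, 1.27 ± 1.10 RPM for TI and 0.735 ± 0.442 RPM for TIM. It was 3.53-fold lower in TI than in AG (exact two-sided permutation test, adjusted p = 0.0182), 6.11-fold lower in TIM than in AG (exact test, adjusted p = 0.0182) and 3.02-fold lower in AGM than in AG (exact test, adjusted p = 0.0446). These values rest on 0 to 102 reads per library. With any 1 AG library left out, the calls of Nr3c2 and Hsd11b2 in tumors against AG no longer passed (exact tests, adjusted p = 0.0667), each at the smallest unadjusted p that 2 against 8 libraries allow, 0.0222. The Nr3c2 difference then lay between -8.34 and -7.82 RPM in TI against AG, where it was -8.04 RPM with all libraries. For Hsd11b2 in AGM against AG the smallest p allowed was likewise reached without any 1 AG library (exact test, p = 0.0476, adjusted p = 0.119) or any 1 AGM library (exact test, p = 0.0286, adjusted p = 0.0612 to 0.0714). Its difference was then -3.41 to -2.38 RPM and -3.19 to -2.73 RPM, beside -3.01 RPM with all libraries.

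Hsd11b1 exceeded Hsd11b2 per length in all 3 AG and all 5 AGM libraries, with median ratios of 2.79 and 14.6. In tumors, where 0 to 344 reads of Hsd11b1 and 0 to 57 of Hsd11b2 lay behind each value, Hsd11b1 was the higher one in 2 of 8 TI and 4 of 8 TIM libraries.

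Among the targets, Sgk1 was lower in both tumor groups and Klf9 in TI than in AG, Per1 was higher in TIM than in TI, and Tsc22d3, Fkbp5 and Zbtb16 passed no comparison in the tests as fixed. Sgk1 (ENSMUSG00000019970, chr10:21758083-21875802), a kinase that promotes sodium transport and carries the full receptor palindrome shown above, was at 2.92, 2.59 and 2.41 FPKM in AG and at 2.68 to 3.19 FPKM in AGM. Its lowest, median and highest values were 0.266, 0.778 and 1.92 FPKM in TI and 0.539, 1.12 and 1.65 FPKM in TIM. Every tumor library lay below every gland library. Sgk1 fell by 0.98 ± 0.21 (SE) in TI against AG (limma, adjusted p = 0.000468), by 0.83 ± 0.21 in TIM against AG (adjusted p = 0.00235) and by 0.91 ± 0.18 in TIM against AGM (adjusted p = 0.000127). The difference between AGM and AG was 0.09 ± 0.23 (adjusted p = 0.823), with an interval of -0.39 to 0.56. Endothelial markers, summing to 23.2 to 25.0 FPKM in AG, were likewise lower in TI (4 of 6) and TIM (6 of 6), and their part in the Sgk1 result was not tested.

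Klf9 (ENSMUSG00000033863, chr19:23118187-23148497), a Krüppel-like transcription factor induced by glucocorticoids and thyroid hormone, was at 2.35, 2.13 and 2.48 FPKM in AG and at 1.17 to 2.82 FPKM in AGM. In TI its lowest, median and highest values were 0.133, 0.543 and 1.76 FPKM, all below AG. In TIM they were 0.254, 1.23 and 2.90 FPKM, with 5 of 8 libraries below AG and 2 above. Klf9 fell by 1.03 ± 0.33 (SE) in TI against AG (limma, adjusted p = 0.0111), whereas the difference in TIM against AG was -0.54 ± 0.33 (adjusted p = 0.171). TIM and TI did not differ beyond their spread (0.48 ± 0.24, adjusted p = 0.152), so a difference between the models was not shown.

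Per1 (ENSMUSG00000020893, chr11:68986035-69002300), a repressor of the circadian clock that glucocorticoids induce rapidly, was at 1.28, 3.77 and 3.03 FPKM in AG and at 2.82 to 4.75 FPKM in AGM. Its lowest, median and highest values were 0.647, 2.19 and 5.17 FPKM in TI and 1.85, 5.76 and 12.02 FPKM in TIM. TIM libraries 1, 2, 4 and 5, at 6.92 to 12.02 FPKM, exceeded every library of the other groups, and the other 4 lay within the range of TI. Per1 was higher in TIM than in TI by 0.94 ± 0.33 on the log2(FPKM + 1) scale (limma, adjusted p = 0.0450). This call was close to the threshold and was lost without any 1 of TI libraries 1, 2, 3, 5, 7 and 8 or TIM libraries 1, 2, 4 and 5 (adjusted p = 0.0531 to 0.0982). It was also lost without a filter, with rescaled FPKM, with limma-voom and when only TI and TIM were fitted (adjusted p = 0.0549 to 0.108). The difference was 0.87 ± 0.45 in TIM against AG (adjusted p = 0.111), which passed without TIM library 3 or 8 (adjusted p = 0.0486 and 0.0493), and 0.46 ± 0.38 in TIM against AGM (adjusted p = 0.289).

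Tsc22d3 (ENSMUSG00000031431, chrX:139440091-139501408), which encodes the anti-inflammatory leucine zipper protein GILZ, was the only member above 1 FPKM in all 24 libraries. It was at 3.12, 3.38 and 3.42 FPKM in AG and at 3.18 to 4.61 FPKM in AGM, with medians of 4.26 FPKM in TI and 4.33 FPKM in TIM. In each tumor group 7 of 8 libraries lay above every AG library, the highest being 7.40 FPKM in TI and 8.12 FPKM in TIM. The differences from AG were 0.34 ± 0.22 in TI (limma, adjusted p = 0.198) and 0.37 ± 0.22 in TIM (adjusted p = 0.162), with intervals of -0.11 to 0.80 and -0.08 to 0.83. With rescaled FPKM, Tsc22d3 rose in TIM against AGM by 0.57 (adjusted p = 0.0200), against 0.23 as deposited (adjusted p = 0.274).

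Fkbp5 (ENSMUSG00000024222, chr17:28618058-28737521), a cochaperone that lowers the hormone affinity of the receptor, was at 1.38, 0.903 and 1.46 FPKM in AG and at 1.28 to 2.06 FPKM in AGM. Its lowest, median and highest values were 0.737, 1.34 and 6.70 FPKM in TI and 0.912, 2.30 and 3.60 FPKM in TIM. In TIM 7 of 8 libraries exceeded every AG library, and in TI 3 lay above and 3 below. The difference was 0.30 ± 0.32 in TI against AG (limma, adjusted p = 0.463) and 0.51 ± 0.32 in TIM against AG (adjusted p = 0.187). Zbtb16 (ENSMUSG00000066687, chr9:48563141-48748664), a zinc finger transcription factor with a strong glucocorticoid response in many cells, was at 0.0881 to 0.221 FPKM in AG and 0.259 to 0.369 FPKM in AGM. It ran from 0.00945 to 0.684 FPKM in TI and from 0 to 1.60 FPKM in TIM. Its mean was 5.29 ± 2.18 RPM for AG, 7.21 ± 1.35 RPM for AGM, 6.21 ± 7.85 RPM for TI and 17.2 ± 15.6 RPM for TIM, and the difference did not pass in TIM against AG (exact test, adjusted p = 0.322) or against TI (exact test, adjusted p = 0.177). In AGM against AG it did not pass in RPM (exact test, adjusted p = 0.3125) but did on FPKM as deposited, 1.88-fold higher (exact test, adjusted p = 0.0335), where every AGM library lay above every AG library.

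**Figure D3:**
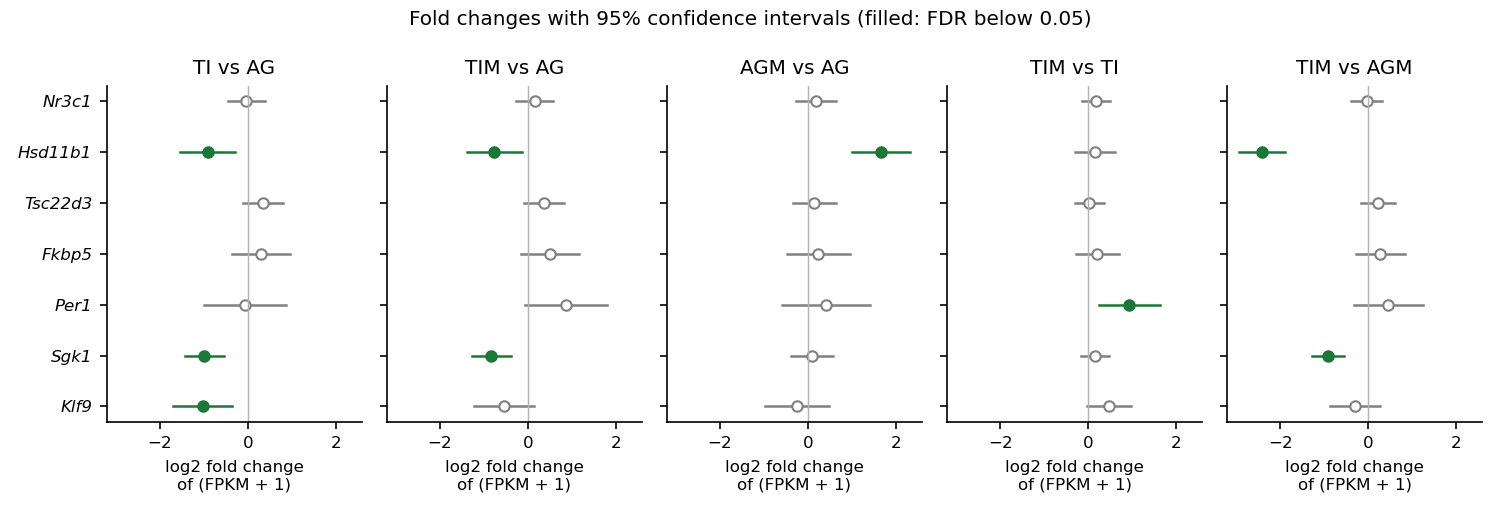
Log2 fold change of FPKM + 1 with 95% confidence intervals for the 7 genes tested across all genes, 1 panel per comparison. Filled points mark an FDR below 0.05. Sgk1 and Hsd11b1 lay below 0 in TI and TIM against AG and in TIM against AGM, and Hsd11b1 above 0 in AGM against AG.

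A further contrast subtracted the difference of TI against AG from the difference of TIM against AGM. It does not isolate MYCN. TI were labelled IGF2BP1 +/+ in 7 of 8 samples, whereas in the paper TIM carried both transgenes at Rosa26 without a wildtype copy. IGF2BP1 dose and run therefore changed together with MYCN. Among the 7 tested members only Hsd11b1 passed, at -1.51 ± 0.39 (limma, adjusted p = 0.0129), where 10% of all genes passed, 3.85% higher and 6.15% lower. The same contrast is TIM against TI less AGM against AG, which for Hsd11b1 were 0.15 (not called) and 1.66. It thus mostly restates the rise of Hsd11b1 in AGM and is no separate result on tumors. Without AGM libraries 4 and 5 the contrast was -0.86 (adjusted p = 0.0137). It did not pass with a pseudocount of 0.1 (-1.81, adjusted p = 0.205), with rescaled FPKM (-1.41, adjusted p = 0.140) or on recovered reads with limma-voom (-3.15, adjusted p = 0.419).

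Within the tumor groups the members varied together in part. TI libraries 4, 6 and 8 ranked among the 3 highest of their group for 8, 9 and 9 of the 10 genes, and TI library 6 was at 0.9999 FPKM of Nr3c1, 6.70 FPKM of Fkbp5 and 0.684 FPKM of Zbtb16. TI library 3 was lowest for 5 genes, with 0.191 FPKM of Nr3c1 and 0.647 FPKM of Per1. In TIM, library 5 was highest for 5 genes and library 8 lowest for 4. A relation of Nr3c1 to each other member, chosen after the values had been seen, was computed in each tumor group on log2(FPKM + 1), 18 relations in all. In TI Pearson's r with Nr3c1 was 0.90 for Per1, 0.90 for Zbtb16, 0.89 for Fkbp5 and 0.86 for Nr3c2 (n = 8, exact permutation test, adjusted p = 0.0124 for each), and 0.79 for Klf9 (exact permutation test, adjusted p = 0.0494). For Sgk1 it was 0.72 (exact permutation test, adjusted p = 0.0985) and for Hsd11b1 0.77 (exact permutation test, adjusted p = 0.0505). For Tsc22d3 it was 0.58 (exact permutation test, adjusted p = 0.235) and for Hsd11b2 -0.55 (exact permutation test, adjusted p = 0.260). Spearman's rho was 0.86 for Per1, 0.83 for Zbtb16 and 0.88 for Klf9 (exact permutation test, adjusted p = 0.0923 for each), 0.79 for Fkbp5 (exact permutation test, adjusted p = 0.101) and 0.81 for Nr3c2 (exact permutation test, adjusted p = 0.0980), so that no rank correlation passed. Without the 2 libraries farthest from the median of Nr3c1, r was 0.76 for Per1, 0.80 for Zbtb16, 0.71 for Fkbp5, 0.82 for Nr3c2 and 0.83 for Klf9. In TIM the relation passed for Per1 alone (r = 0.82, exact permutation test, adjusted p = 0.0494), at a rho of 0.67 (exact permutation test, adjusted p = 0.214) and an r of 0.77 without the 2 farthest libraries. Whether the relations differed between TI and TIM was not tested. The share of all tested genes that relate to Nr3c1 as closely was not counted, so the relations are not shown to be particular to these genes.

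The same libraries differed in cell type markers. TI library 4 held 28.0 FPKM of endothelial and 78.0 FPKM of fibroblast markers, against 3.09 to 8.39 FPKM and 7.87 to 31.4 FPKM in the other TI libraries. TI library 6 held the most chromaffin markers of TI, 1814 FPKM. TIM library 5 held 44.3 FPKM of Schwann cell and 4740 FPKM of chromaffin markers, the most of TIM. Their part in the relations was not tested, and the sequencing run of a single library is not known from its column.

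**Figure D4:**
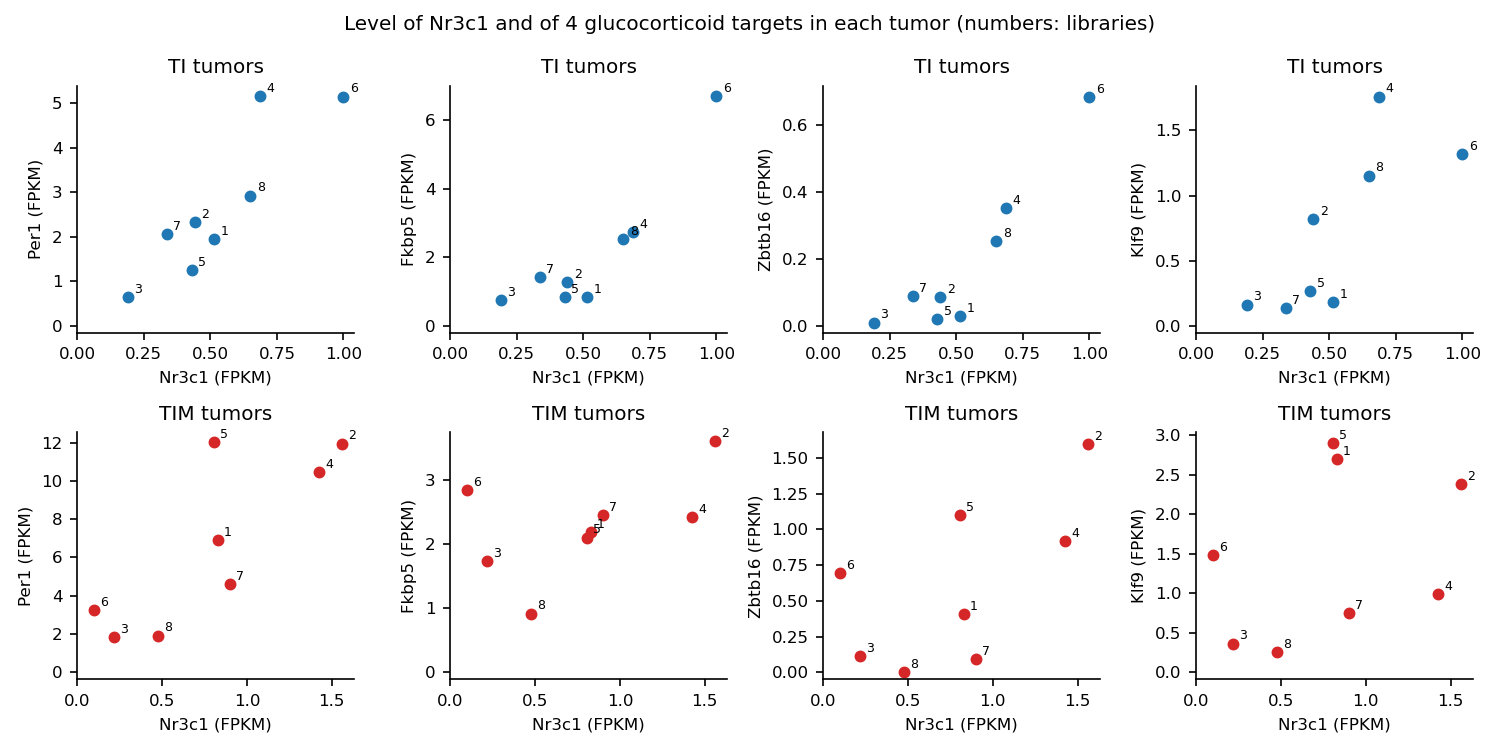
FPKM of Per1, Fkbp5, Zbtb16 and Klf9 (vertical axes) against FPKM of Nr3c1 (horizontal axes) in the 8 TI tumors (top) and the 8 TIM tumors (bottom), each point marked with its library number. In TI, libraries 4, 6 and 8 held the highest values of Nr3c1 and of each target shown. In TIM, libraries 2 and 4 were highest for Nr3c1, and libraries 5 and 1 for Klf9.

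Upstream of the receptor, genes of hormone supply and transport were lower in tumors. The list mixes genes that supply hormone with others, such as an efflux pump, that remove it, so the falls do not point in 1 direction. Of 7 genes listed, 6 were tested, and all 6 fell in TI against AG, in TIM against AG and in TIM against AGM, against backgrounds of 27.7%, 28.5% and 33.4%. Abcb1a, Abcb1b, Srd5a1 and Mc2r stayed under 1 FPKM in every tumor library, and Mrap in every TI library. They reached the minimum for testing through glands, where they were high. Their falls were thus largely fixed by the filter, and the count is not read against the backgrounds. Mrap, the accessory protein of the ACTH receptor on cortical cells, averaged 5.25 ± 0.385 FPKM across AG and 81.6 ± 17.4 FPKM across AGM. In tumors it averaged 0.0596 ± 0.112 FPKM across TI and 0.392 ± 0.704 FPKM across TIM. Abcb1b, an efflux pump that exports steroids, fell by 3.56 ± 0.15 on the log2(FPKM + 1) scale in TI against AG (limma, adjusted p = 4.63e-15), with means of 0.0585 ± 0.0826 and 11.5 ± 1.31 FPKM. In AGM against AG the ACTH receptor Mc2r rose by 3.27 ± 0.10 (adjusted p = 1.21e-17) and Mrap by 3.70 ± 0.26 (adjusted p = 9.72e-11), 3 genes rising and 3 falling. Mc2r is also 1 of the 9 cortex markers, 8 of which were lower in each tumor group than in AG, and their part in the result was not tested.

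Of the 12 chaperone genes that hold the receptor ready for hormone, 2 rose and 2 fell in TI against AG. Over all genes 24.6% were called higher and 27.7% lower in that comparison, and 22.5% and 28.5% in TIM against AG. In AGM against AG 14% of all genes were called lower, and in TIM against AGM 31.9% higher. Hsp90aa1, the inducible form of the main chaperone, rose by 1.06 ± 0.30 (limma, adjusted p = 0.00497), from a mean of 18.8 ± 1.75 to 41.4 ± 10.1 FPKM. Bag1, a cochaperone that binds the receptor, fell by 1.24 ± 0.21 in TI (adjusted p = 2.47e-05) and by 1.68 ± 0.21 in TIM (adjusted p = 4.08e-07) against AG. Against AG, 1 chaperone rose in TIM, Hsp90ab1 at 0.60 ± 0.19 (adjusted p = 0.0112), and Bag1 alone fell. Hsp90aa1 and 4 others fell in AGM against AG and none rose (Hsp90aa1 fell by 1.23 ± 0.32, adjusted p = 0.00660), and in TIM against AGM 5 rose and 1 fell. Hsp90aa1 fell by 0.67 ± 0.22 (adjusted p = 0.0335) and Bag1 by 0.44 ± 0.15 (adjusted p = 0.0411) in TIM against TI. Both calls were lost when only TI and TIM were fitted (adjusted p = 0.0713 and 0.0741). Hsp90aa1 was also lost without any 1 of TI libraries 1, 2, 3 and 5 or TIM libraries 1, 2, 5 and 7 (adjusted p = 0.0512 to 0.0718), and Bag1 without any 1 of TI libraries 2, 3, 4 and 7 or TIM libraries 1, 2, 4, 5 and 7 (adjusted p = 0.0547 to 0.0910). Rescaled FPKM gave 1 higher and 1 lower in TI against AG and 0 higher in TIM against AG, where Hsp90ab1 was lost (0.46, adjusted p = 0.0904), but 8 lower in AGM against AG and 9 higher in TIM against AGM. Hsp90ab1 in TIM was also lost without AG library 2 (adjusted p = 0.0509), and without the liver-marked libraries 3 chaperones fell in AGM against AG.

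Of 14 coregulators 10 were tested. Over all genes 24.6% were called higher and 27.7% lower in TI against AG, and 22.5% and 28.5% in TIM against AG. In TIM against TI 12.9% of all genes were called lower, in AGM against AG 14% lower and in TIM against AGM 31.9% higher. In TI against AG Carm1, an arginine methyltransferase coactivator, rose by 0.42 ± 0.17 (limma, adjusted p = 0.0414) and the coactivator Ncoa3 fell by 0.28 ± 0.12 (adjusted p = 0.0497). Both calls were lost with rescaled FPKM and without any 1 AG library (adjusted p = 0.0682 to 0.142 for Carm1, 0.0780 to 0.184 for Ncoa3). Each was also lost without some single TI libraries. Ncoa3 was lost as well with a pseudocount of 0.1, without a filter, with a minimum of 0.1 FPKM, with limma-voom and when only TI and AG were fitted (adjusted p = 0.0529 to 0.0884). TIM against AG had 1 higher and 4 lower, among the latter the corepressor Ncor1 at -0.70 ± 0.17 (limma, adjusted p = 0.00192). In TIM against TI 3 fell and none rose. Ncor1 fell by 0.55 ± 0.13 (adjusted p = 0.00426) and the coactivator Ncoa1 by 0.43 ± 0.08 (adjusted p = 0.000580). Between AGM and AG 3 fell and none rose, and in TIM against AGM 2 rose and none fell, which became 10 of 14 lower and 7 of 14 higher with rescaled FPKM. The 3 lower in AGM against AG became 6 when only these groups were fitted and 1 without the liver-marked libraries.

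Besides the members, 29 further genes known to be induced by glucocorticoids were listed, and 24 were tested. In TI against AG 7 fell and 1 rose, beside 27.7% of all genes called lower and 24.6% higher. The count of lower genes was thus near the share over all genes. Pck1, the gluconeogenic enzyme, fell by 4.95 ± 0.50 on the log2(FPKM + 1) scale (limma, adjusted p = 1.95e-08), from a mean of 46.4 ± 35.7 to 0.0135 ± 0.0136 FPKM. Rgs2, a regulator of G protein signalling, fell by 2.58 ± 0.23 (adjusted p = 2.39e-09). The list was split in TIM against AG, with 5 higher and 6 lower, beside 22.5% of all genes called higher and 28.5% lower. Pck1 fell by 4.61 ± 0.50 (adjusted p = 6.24e-08) and Rgs2 fell by 2.62 ± 0.23 (adjusted p = 1.94e-09). With rescaled FPKM 3 were higher and 8 lower. The median log2 fold change of the list was -0.26 in TI against AG and 0.22 in TIM against AG, beside -0.002 and -0.005 over all tested genes. Pck1 is also expressed in fat, and the adipocyte markers given above moved with it.

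Of these 24, 9 rose in AGM against AG, where 14.6% of all genes were called higher, and none fell. The count was 14 when only AGM and AG were fitted, 7 with rescaled FPKM and 6 of 23 without the liver-marked libraries. Pnmt, the adrenaline-making enzyme induced by cortical glucocorticoid in chromaffin cells, rose by 6.59 ± 1.45 (limma, adjusted p = 0.00161), from a mean of 1.62 ± 0.490 to 257 ± 79.96 FPKM, a call lost with limma-voom (adjusted p = 0.0606). Cdkn1c, the cell cycle inhibitor p57, rose by 4.23 ± 0.71 (adjusted p = 8.73e-05), from 6.31 ± 0.759 to 139 ± 32.8 FPKM. The chromaffin and cortex markers also rose in AGM, 5 of 10 and 8 of 9, and their part was not tested. AGM and AG shared no run, so the size of these rises cannot be told apart from run and its correction. In TIM against AGM 14 of the 24 fell and 1 rose, beside 33.4% of all genes called lower and 31.9% higher. Pnmt was among those that fell and ran from 0 to 204 FPKM in TIM with a median of 10.6 FPKM. In TIM against TI 4 rose (7 with rescaled FPKM) and none fell, beside 10% of all genes called higher and 12.9% lower. Cdkn1c (2.40 ± 0.48, limma, adjusted p = 0.00149, lost with limma-voom at adjusted p = 0.0838) and the metal-binding metallothionein Mt1 (2.08 ± 0.49, adjusted p = 0.00493) led them.

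Of 10 mineralocorticoid-regulated sodium transport genes only 3 were expressed enough for the test, and the epithelial sodium channel genes Scnn1a, Scnn1b and Scnn1g stayed under 1 FPKM in every library. Atp1b1, the beta subunit of the sodium pump, rose by 2.44 ± 0.48 in TI (limma, adjusted p = 0.000162) and by 3.18 ± 0.48 in TIM (adjusted p = 6.73e-06) against AG. Its means were 1.77 ± 0.314 FPKM for AG, 15.4 ± 7.07 FPKM for TI and 29.9 ± 20.6 FPKM for TIM. It also rose in AGM, by 1.96 ± 0.51 (adjusted p = 0.00660). Wnk1, a kinase upstream of sodium chloride transporters, fell in TIM against AG by 0.45 ± 0.14 (adjusted p = 0.0109).

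Since Per1 belongs to the clock and responds to many stimuli, other clock and immediate early genes were set beside it. Of 16 clock genes listed 10 were tested, of which 6 fell and 2 rose in TI against AG, beside 27.7% of all genes called lower and 24.6% higher. In TIM 4 fell and 1 rose against AG, beside 28.5% lower and 22.5% higher. Rescaled FPKM, with 15 genes tested, gave 9 lower in TI and 8 lower in TIM. Dbp, a clock output factor, averaged 23.6 ± 1.12 FPKM across AG, 33.8 ± 9.13 FPKM across AGM, 0.933 ± 0.379 FPKM across TI and 1.28 ± 1.26 FPKM across TIM. It fell by 3.69 ± 0.27 in TI (limma, adjusted p = 9.95e-11) and by 3.56 ± 0.27 in TIM (adjusted p = 1.86e-10) against AG. The clock repressor Nr1d1 fell by 2.12 ± 0.33 (adjusted p = 1.33e-05) and 1.77 ± 0.33 (adjusted p = 0.000117). For Per1 the same differences were -0.07 ± 0.45 (adjusted p = 0.957) and 0.87 ± 0.45 (adjusted p = 0.111). In TIM against TI Bhlhe40 rose by 0.59 ± 0.20 (adjusted p = 0.0333) and Hlf fell by 0.80 ± 0.24 (adjusted p = 0.0198). Both calls were lost when only TI and TIM were fitted (adjusted p = 0.0975 and 0.0728), and Bhlhe40 also without any 1 of TI libraries 1, 2, 3, 5 and 7 or TIM libraries 1, 2, 5 and 7 (adjusted p = 0.0513 to 0.0717). Bhlhe40 and Bhlhe41 rose in AGM against AG and none fell, beside 14.6% of all genes called higher and 14% lower. The count of higher genes was near that share. When only these groups were fitted 5 rose, and with rescaled FPKM Bhlhe41 was lost (adjusted p = 0.0818). In TIM against AGM 7 clock genes fell and 1 rose, beside 33.4% of all genes called lower and 31.9% higher. The time of day at which tissue was taken is not stated in the sources used here.

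Of 9 immediate early genes tested, 1 rose in TI against AG, Atf3 at 1.12 ± 0.37 (limma, adjusted p = 0.0135). Over all genes 24.6% were called higher in TI against AG and 22.5% in TIM against AG. Against AG, 3 rose in TIM and none fell, led by Fos (2.51 ± 0.75, adjusted p = 0.00733) and Egr1 (2.46 ± 0.69, adjusted p = 0.00485). Ier2 and Ier3 rose in AGM against AG, beside 14.6% of all genes called higher. In TIM against TI only Ier3 rose (0.84 ± 0.24, adjusted p = 0.0162), beside 10% of all genes higher. In TIM against AGM 3 fell and none rose, beside 33.4% of all genes called lower. The counts in these comparisons were near the shares over all genes. With limma-voom the calls of Atf3 (adjusted p = 0.0840), Fos (adjusted p = 0.198) and Ier2 (adjusted p = 0.0543) were lost. Ier2 in AGM was also lost without a filter (adjusted p = 0.0533), with rescaled FPKM (adjusted p = 0.341), without the liver-marked libraries (adjusted p = 0.147) and without any 1 of AG libraries 1 and 3 or AGM libraries 1, 3, 4 and 5 (adjusted p = 0.0527 to 0.192). When only the groups compared were fitted, 7 immediate early genes rose in AGM against AG and none passed in TIM against TI (Ier3 at adjusted p = 0.0574).

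**Figure D5:**
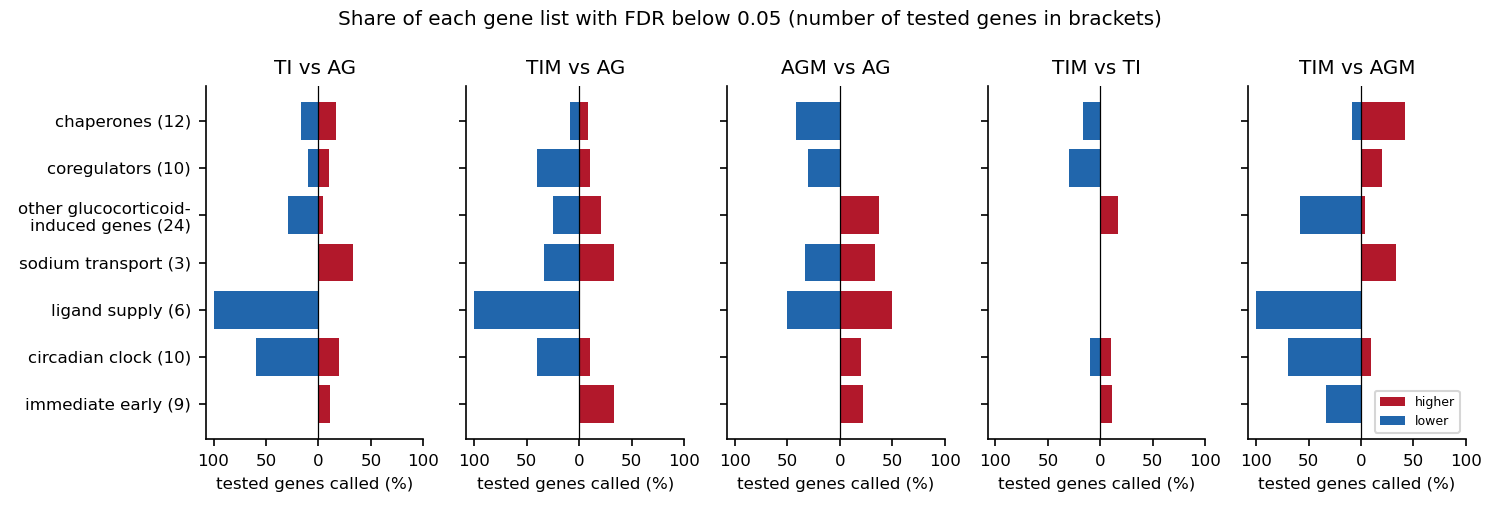
Share of each gene list (%, horizontal axis, number of tested genes in brackets) called lower (left of 0) or higher (right of 0) at an FDR below 0.05, 1 panel per comparison. All 6 tested genes of hormone supply and transport were lower in TI and TIM against AG, most of them genes that passed the filter only through glands. Of 24 other glucocorticoid-induced genes, 9 were higher in AGM against AG.

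Across the 24 libraries, the tested genes most like each member by Pearson's r of log2(FPKM + 1) were named as a description, since all pairs share libraries and group differences. For Nr3c1 these were Creb3l2 (0.83), Inpp5a (0.82) and Arid5b (0.80). For Hsd11b1 they were Mocos (0.99), Khk (0.98) and Cyp4v3 (0.98), and for Sgk1 Lima1 (0.94), Herpud2 (0.93) and Tmem38b (0.93). For Per1 they were Trak1 (0.91), Epm2a (0.91) and Wsb2 (0.89), for Klf9 Slc44a1 (0.88), Vcl (0.88) and Sh2b3 (0.86), and for Fkbp5 Xpnpep1 (0.85), Eaf1 (0.85) and Tmem248 (0.83). For Tsc22d3 they were Olfml2b (0.78), Tmem151a (0.76) and Hspb7 (0.76). No member was among the 3 most like any other member.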

How the data were processed

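RNA-seq values of 24 mouse samples in 4 groups were used. The authors aligned reads to mm39, corrected a batch effect with ComBat-seq, normalized with TMM in edgeR and deposited FPKM with gene lengths. The submitters' processing notes name cutadapt 2.8, HISAT2 2.1.0, SAMtools 1.10, featureCounts 2.0.0 and edgeR 3.40. Their deposited fold change, p-value and FDR columns were not used. Columns were tied to groups by name but not to single samples.

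FPKM times gene length gave whole multiples of 1 step per column in 100% of entries (tolerance 0.01), which returned reads and RPM. limma 3.58.1 in R 4.3.3 (lmFit, eBayes with trend) was fitted to log2(FPKM + 1) of 10171 genes in all libraries, adjusted by Benjamini-Hochberg, and 5 comparisons and their interaction were read at FDR below 0.05. Genes below the filter were compared by exact permutation in scipy 1.17.1. The scripts were tested on simulated data. Alternatives were pseudocount, filter, scaling, limma-voom, pairwise fits and left-out libraries. Rescaled FPKM means FPKM recomputed on the reads outside the genes above 1000 FPKM.

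The members and gene lists were chosen with earlier results of these data known. Of each list the text names, per comparison, up to 2 called genes with the largest fold change, of each tested member the 3 most similar genes, and marker genes only as levels. Gene positions came from GENCODE release M39 on GRCm39.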

Additional observations from a re-analysis of the deposited data

Results flagged for a closer look

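Nr3c1 was flagged in AGM because library 2, at 1.36 FPKM, lay far from the other 4 (0.582 to 0.733 FPKM), and Hsd11b1 in TI because library 6, at 0.277 FPKM, lay far from the other 7 (0.0135 to 0.0808 FPKM). These were 2 of 30 pairs of a member and a group checked, where chance marks about 1 in 20.

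The fold change of Hsd11b1 in TIM against AGM differed from that in TI against AG by -1.51 (limma, adjusted p = 0.0129), a contrast that does not isolate MYCN. It was -0.86 without the 2 liver-marked AGM libraries (adjusted p = 0.0137), and the call was lost with a pseudocount of 0.1, with rescaled FPKM and with limma-voom (adjusted p = 0.140 to 0.419). On FPKM, Hsd11b1 ran from 2.90 to 14.1 in AGM and from 0.989 to 1.04 in AG. Its fold change in TIM against TI was 0.15 and not called, so the contrast mostly restates its rise in AGM against AG.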

How the results depend on the processing

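No paired analysis was possible because the columns carry no numbers that match the sample titles. In TI against AG 3 members were called, 5 without a filter, with rescaled FPKM and with the added minimum of 0.1 FPKM. In TIM against AG 2 became 4 with rescaled FPKM and the 0.1 FPKM minimum, and 1 to 3 with 1 library left out. In AGM against AG 1 became 3 without a filter and with the 0.1 FPKM minimum (Hsd11b1, Nr3c2 and Hsd11b2), and 2 with rescaled FPKM. In TIM against TI 1 became 0 without a filter, with rescaled FPKM, with limma-voom and when only the groups compared were fitted, and 0 to 1 with 1 library left out. In TIM against AGM 2 became 4 with rescaled FPKM. The interaction had 1 call, 0 with a pseudocount of 0.1, rescaled FPKM or limma-voom, and 2 without a filter and with the 0.1 FPKM minimum. A minimum of 1 FPKM in all libraries left Tsc22d3 alone and 0 calls in each comparison. Of the low genes 6 pairs passed, 8 on FPKM as deposited (also Zbtb16 in AGM against AG and Hsd11b2 in TIM against AGM) and 1 to 6 with 1 library left out, where 2 AG libraries against 8 allow no p below 0.0222. The added minimum and the fit without the liver-marked AGM libraries were chosen after seeing the data. Rescaling moved the median of all genes by -0.34 in AGM against AG, -0.14 in TIM against AG, -0.12 in TIM against TI, 0.21 in TIM against AGM and 0.25 in the interaction. The share of higher genes among the calls went in AGM against AG from 51.2% to 21.8%, in TIM against TI from 43.6% to 29.9%, in TIM against AGM from 48.8% to 59.9% and in the interaction from 38.5% to 62.1%. No member called in the fit as reported turned its direction under any alternative run. Where a call changed, the cause was not tested. Depth limits Nr3c2, Hsd11b2 and Zbtb16 most, with 0 to 789 reads per library behind each value.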
